A study of Mus musculus with 309 samples.

Results

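The tumours described here are 3 mouse mammary tumours of the model 2208 treated with Carboplatin + Paclitaxel and 3 untreated tumours of the same model. They were chosen by the treatment named in their titles and make up 6 of the 309 tumours, from 24 tumour models, in a bulk mRNA sequencing series on triple-negative breast cancer models. They are called tumours 1, 2 and 3 of their group in the order of their library numbers, which serves only to name them. Median survival given in the labels was 44.5 days with chemotherapy and 21 days without treatment, 2.12 times as long, which ranked 2208 number 5 of the 16 models with both values. With 1 median per group this has no replicate check. Another 3 tumours of 2208 that received anti-PD1 + anti-CTLA4 (median survival 22 days) serve as a second treated group with neighbouring library numbers. The labels used here give no dose, schedule, collection time, genotype, strain or age for these groups, and nothing in them says whether the tumours of a group came from separate animals, so p-values measure only the spread between these tumours.

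Carboplatin is a platinum drug that binds DNA and links its strands, which blocks replication and activates the p53 pathway. Paclitaxel stabilises microtubules, so that the mitotic spindle cannot separate chromosomes properly. DNA that reaches the cytosol of cells damaged in this way is known to be sensed by the cGAS and STING proteins, which induce type I interferon. Interferon then acts through its receptor on factors that include Stat2 and Irf9, which bind a repeated GAAA motif in the promoters of interferon-stimulated genes. Interferon gamma, made mostly by T cells and NK cells, induces antigen presentation genes and the chemokines that attract T cells.

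Of the 42 gene lists examined, the type I interferon response had the largest share of members that stood higher in the treated tumours at an unadjusted p under 0.05, so promoter sequence is shown for 5 of its genes, taken from those that held the motif searched here. The promoter of Xaf1, another member, held none. Each line gives the 160 bases that lie directly upstream of the start site, 5′ to 3′ on the strand of the gene, from RefSeq on the build GRCm38.p6. The windows are chr4:156200819-156200978 on the minus strand for Isg15, chr19:34640729-34640888 on the plus strand for Ifit1, chr12:26456453-26456612 on the minus strand for Rsad2, chr19:34583369-34583528 on the plus strand for Ifit3 and chr5:120777660-120777819 on the minus strand for Oas3. Capitals mark each match to GAAANNGAAA or its reverse complement TTTCNNTTTC, searched on both strands with overlapping matches joined.
Isg15: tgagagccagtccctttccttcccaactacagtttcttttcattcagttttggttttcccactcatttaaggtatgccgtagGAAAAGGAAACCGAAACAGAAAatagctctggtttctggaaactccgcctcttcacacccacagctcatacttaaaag
Ifit1: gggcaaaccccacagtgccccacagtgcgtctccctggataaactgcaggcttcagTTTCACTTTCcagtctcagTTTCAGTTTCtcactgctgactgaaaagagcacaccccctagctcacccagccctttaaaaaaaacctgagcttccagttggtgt
Rsad2: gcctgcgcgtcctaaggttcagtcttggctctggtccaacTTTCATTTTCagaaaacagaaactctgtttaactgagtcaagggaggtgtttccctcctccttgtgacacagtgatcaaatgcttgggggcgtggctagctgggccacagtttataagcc
Ifit3: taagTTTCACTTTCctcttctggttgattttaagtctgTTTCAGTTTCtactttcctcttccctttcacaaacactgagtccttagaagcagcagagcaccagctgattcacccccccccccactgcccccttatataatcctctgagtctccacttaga
Oas3: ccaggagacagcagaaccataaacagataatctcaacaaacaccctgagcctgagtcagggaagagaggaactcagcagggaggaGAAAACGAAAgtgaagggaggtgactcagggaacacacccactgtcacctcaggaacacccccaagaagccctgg
In Isg15 3 overlapping matches began 78, 72 and 66 bases upstream of the start site. The 2 matches in Ifit1 began 104 and 85 bases upstream, and those in Ifit3 156 and 122 bases upstream. Of all 32851 mouse promoters in the RefSeq table, 565 (1.72%) held a match in this window, and so did 541 of the 27025 genes they belong to. Of the 28 genes listed here as the type I interferon response, 21 had a promoter in the table and 9 of these (42.9%) held one. The list of interferon gamma and MHC class I genes also had 9 of 21 matched genes with the motif, whereas 0 of 21 p53 targets, 0 of 24 replication genes, 0 of 14 cholesterol synthesis genes and 0 of 14 muscle genes held it. A match is a run of letters and does not show that a factor was bound in these tumours.

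Total estimated counts ran from 78.6 M to 119 M in the untreated and from 76.4 M to 113 M in the chemotherapy libraries. The means of the totals, of the share of mitochondrial counts and of the number of genes with a count did not differ beyond their spread (exact two-sided permutation p = 0.6, 0.6 and 0.4, with 0.1 the smallest p that 3 against 3 allows). Levels are given as CPM, a gene's count scaled to library size, on 1 scale over all 15 tumours of 2208. The epithelial markers Epcam (518, 558 and 561 CPM untreated, 607, 484 and 504 CPM treated), Cdh1, Krt8 and Krt18 were abundant in all 6 tumours, as in a tissue of epithelial origin. The chemotherapy tumours were less alike than the untreated ones: correlations of log2 CPM between tumours were 0.9752 to 0.9813 within the chemotherapy group, 0.9889 to 0.9932 within the untreated group and 0.9908 to 0.9936 within the antibody group. The median standard deviation of a gene was 0.272 log2 units with chemotherapy, 0.13 without treatment and 0.114 with antibodies. Library numbers separate the treated from the untreated tumours without exception, so a difference that goes with the library number and an effect of treatment cannot be told apart here.

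No gene passed the adjusted threshold of 0.05 in chemotherapy against untreated tumours with edgeR's quasi-likelihood test (0 of 17932 genes, 0%), and the smallest adjusted p was 0.0634. At an unadjusted p under 0.05, 893 genes were higher (4.98%) and 1073 lower (5.98%). The number called depended on the tool. DESeq2 called 252 genes higher (1.41%) and 302 lower (1.68%). An edgeR fit over all 15 tumours of 2208, which takes its estimate of the spread from all treatment groups, called 114 higher (0.608%) and 65 lower (0.347%). DESeq2 and this wider fit, run on the same treated and untreated tumours, shared 172 calls, 31.0% of those of DESeq2 and 96.1% of those of the wider fit. The wider fit pools the chemotherapy tumours with tighter groups (median SD 0.272 log2 units against 0.13 untreated and 0.114 with antibodies). Its p-values may therefore be too small. In the paragraphs below "unadjusted" counts are those of the 6-tumour edgeR test, every fold is a log2 fold from that test with its standard error (SE), and all comparisons against untreated tumours share the same 3 controls. In 1673 genes (9.33%) all 3 treated tumours lay above all 3 untreated ones, and in 1519 (8.47%) all lay below.

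**Figure D1:**
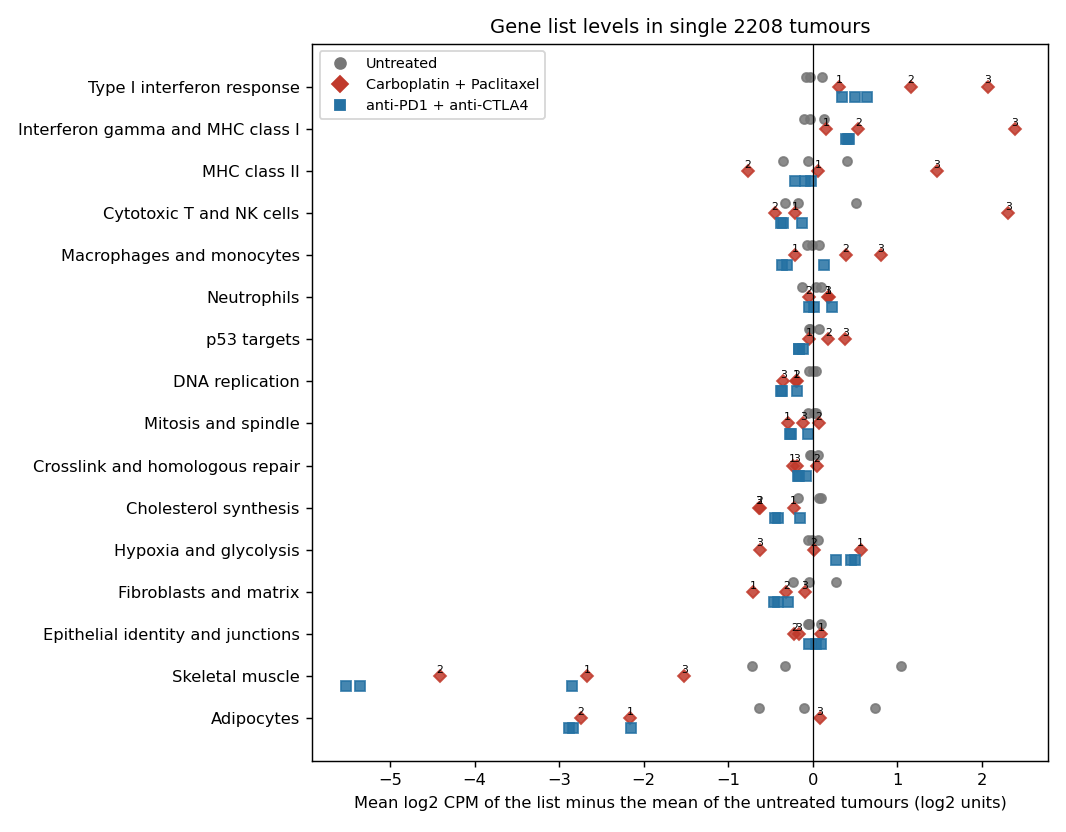
Level of 16 gene lists in each 2208 tumour. The x axis is the mean log2 CPM of the list's tested members minus the mean of the 3 untreated tumours, points are single tumours, and digits number the chemotherapy tumours. Type I interferon genes lie right of the untreated tumours in all 3 chemotherapy tumours, cytotoxic T and NK cell genes in tumour 3 alone, and muscle genes lie far to the left in all treated tumours.

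Type I interferon genes stood higher with chemotherapy in all 28 tested members by their fitted fold, against 50.1% of all genes, with a median log2 fold of 1.43 against 0.0005 for all genes tested. Unadjusted, 25 of 28 were higher and 0 lower. In 19 of 28 the 3 treated tumours lay above every untreated tumour. None was called by the 6-tumour edgeR test, 18 were called higher by DESeq2 and 9 in the fit over 15 tumours. Without tumour 3 the median was 0.82, with 27 members above 0 and 21 higher at unadjusted p, and without tumour 1 it was 1.86. Across the list the mean log2 CPM was 4.67, 4.73 and 4.87 in the untreated tumours and 5.07, 5.92 and 6.83 in the chemotherapy tumours. The groups did not overlap, and the treated tumours were far more spread than the untreated (SD 0.881 against 0.101 log2 units, n = 3 each).

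Isg15 (chr4:156199424-156200818), a ubiquitin-like protein that is attached to other proteins during the antiviral response, stood at 25.3, 25.0 and 32.2 CPM untreated and at 44.4, 54.1 and 108 CPM with chemotherapy. Its log2 fold was 1.31 ± 0.321 (SE, n = 3 per group), with adjusted p = 0.292 by edgeR and 0.00518 to 0.776 over the 16 alternative settings, of which the lowest was DESeq2's. Ifit1 (chr19:34640871-34650009), which binds viral RNA caps, stood at 14.2, 15.4 and 17.2 CPM untreated and at 24.4, 53.4 and 96.2 CPM treated. Each treated tumour lay above each untreated one for both genes, with tumour 3 the highest and tumour 1 the lowest. The fold of Ifit1 was 1.88 ± 0.436 (adjusted p = 0.292 by edgeR, 0.000957 to 0.75 over the alternatives). Usp18, the protease that removes Isg15 from proteins and dampens the interferon receptor, went from 12.6, 13.9 and 15.8 CPM in untreated tumours to 25.1, 39.7 and 77.4 CPM in treated ones. Mx1 and Mx2, GTPases that trap viral particles, had folds of 1.90 ± 0.451 and 1.65 ± 0.351. Rsad2, an enzyme that makes a chain-terminating nucleotide, stood at 20.2, 21.8 and 20.4 CPM untreated and 28.5, 81.0 and 125 CPM treated. Oas3, which makes the signal that activates RNase L, stood at 6.48, 6.15 and 7.86 CPM untreated and 9.78, 25.0 and 88.9 CPM treated. For these genes tumour 1 was the lowest and tumour 3 the highest treated tumour, and tumour 1 still lay above the untreated range.

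The transmitters of the interferon signal showed the same order of tumours. Irf7, the factor that amplifies type I interferon production, stood at 59.5, 66.8 and 86.4 CPM untreated and 110, 144 and 347 CPM treated, with no overlap. Stat2 and Irf9 had folds of 1.29 ± 0.397 and 0.53 ± 0.184. Zbp1, a sensor of Z-form nucleic acid that can start cell death, stood at 32.5, 32.9 and 37.6 CPM untreated and 54.6, 73.9 and 177 CPM treated. Among the 21 tested genes for cytosolic DNA sensing and NF-kB, 7 were higher and 1 lower at unadjusted p, and the median fold was 0.20. Without chemotherapy tumour 3 the median was 0.04, with 12 members above 0 and 9 below, and without tumour 1 it was 0.43.

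**Figure D2:**
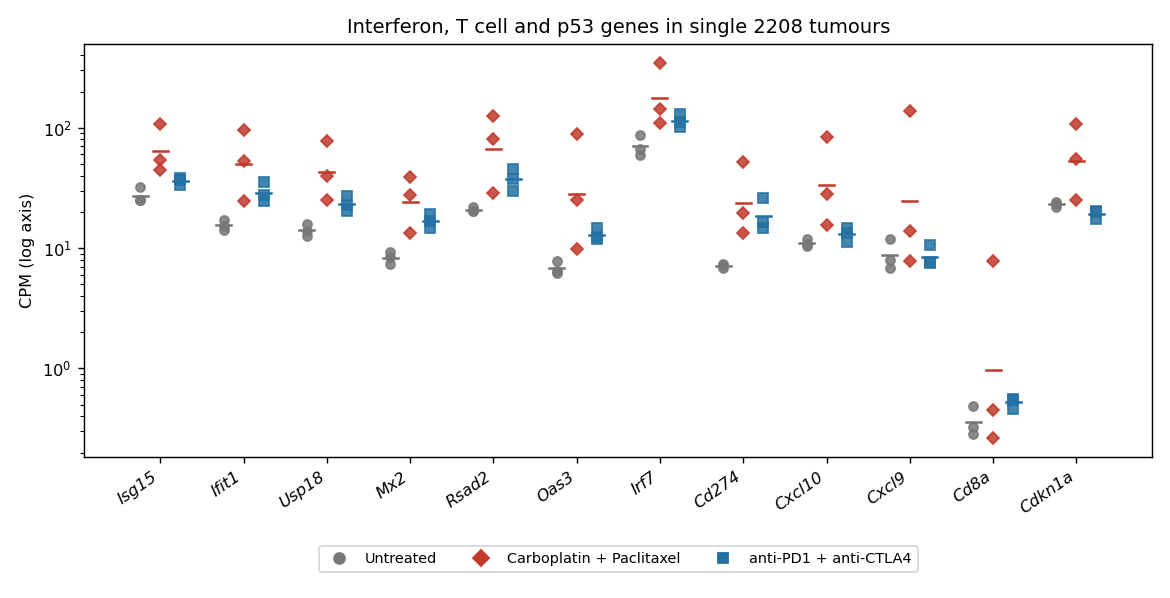
CPM of 12 interferon, T cell and p53 pathway genes in single 2208 tumours on a log axis, with grey circles for untreated, red diamonds for chemotherapy and blue squares for antibody tumours, and a short bar at the geometric mean of each group. Isg15, Ifit1, Usp18, Mx2, Rsad2, Irf7 and Cd274 show chemotherapy groups that lie wholly above the untreated ones, while Cxcl9 and Cd8a have tumour 1 within the untreated range.

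The interferon gamma and MHC class I list had 25 of 25 tested members above 0 and a median fold of 1.29, and 13 were higher at unadjusted p. In 9 the groups did not overlap, none was called by edgeR, 2 were called higher by DESeq2 and 1 in the fit over 15 tumours. Much of the size came from tumour 3: the list's mean log2 CPM was 5.0, 5.06 and 5.23 untreated and 5.25, 5.63 and 7.49 treated, and without tumour 3 the median fold was 0.28 with 20 members above 0. Gbp4, an interferon-induced GTPase, stood at 7.88, 8.18 and 11.4 CPM untreated and at 10.5, 20.7 and 208 CPM treated. The chemokine Cxcl9 stood at 7.96, 6.87 and 12.0 CPM untreated and at 7.85, 13.9 and 139 CPM treated, and Cxcl10 at 10.8, 10.5 and 11.9 CPM untreated and 15.6, 28.2 and 84.1 CPM treated. Both draw T cells through the receptor Cxcr3. Tumour 1 overlapped the untreated group for Gbp4 and Cxcl9, and for Cxcl10 all treated tumours were higher. B2m, the light chain of MHC class I, stood at 543, 605 and 678 CPM untreated and 740, 762 and 2130 CPM treated. H2-K1, a heavy chain of the same complex, overlapped between groups (206, 248 and 260 CPM against 245, 227 and 906 CPM), and without tumour 3 its fold was -0.01.

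Cd274 encodes PD-L1, the ligand by which tumour cells and macrophages restrain T cells, and lies at chr19:29367455-29388095. It stood at 6.86, 7.25 and 7.35 CPM in untreated tumours and at 13.3, 19.6 and 52.1 CPM in chemotherapy tumours. All 3 treated tumours were above all 3 untreated ones. The fold was 1.97 ± 0.47 (adjusted p = 0.292 by edgeR, 0.0013 to 0.75 over the alternatives). Without tumour 3 it was 1.21. In the antibody tumours Cd274 stood at 26.2, 14.8 and 16.4 CPM and rose against the same untreated controls by 1.42 log2 units (adjusted p = 0.00576 by edgeR's quasi-likelihood test).

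Lymphocyte genes differed between the 3 chemotherapy tumours rather than between the groups. The cytotoxic T and NK cell list had 25 of 25 tested members above 0 and a median fold of 1.06, but 2 higher at unadjusted p, 0 called by DESeq2 and 1 with groups that did not overlap. Its mean log2 CPM was -1.06, -1.21 and -0.37 untreated and -1.09, -1.33 and 1.43 treated, and without tumour 3 the median fold was -0.43 with 4 of 25 members above 0. Cd8a, the defining chain of cytotoxic T cells, stood at 0.286, 0.325 and 0.484 CPM untreated and at 0.451, 0.265 and 7.85 CPM treated. Cd3e, part of the T cell receptor complex, stood at 0.294, 0.213 and 0.368 CPM untreated and at 0.316, 0.193 and 2.65 CPM treated. Gzmb, the killing protease granzyme B, stood at 0.457, 0.463 and 0.968 CPM untreated and at 0.613, 0.771 and 2.46 CPM treated. For all of them tumours 1 and 2 lay inside or close to the untreated range and tumour 3 stood apart. In bulk tumours fewer or more cells of a type and less or more RNA per cell cannot be told apart.

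The checkpoint receptors followed the same pattern at low levels. Pdcd1 (PD-1) stood at 0.67, 0.488 and 1.08 CPM untreated and 0.667, 0.385 and 3.87 CPM treated, with a fold of 1.11 ± 0.819 that became -0.49 without tumour 3. Ctla4 stood at 0.245, 0.163 and 0.387 CPM untreated and 0.0721, 0.12 and 1.02 CPM treated. The MHC class II gene H2-Ab1, made by dendritic cells, B cells and activated macrophages, stood at 122, 127 and 181 CPM untreated and at 167 and 77.2 CPM in chemotherapy tumours 1 and 2, with tumour 3 the highest of the 6 (group mean 223 ± 181 CPM, SD, n = 3). Of 9 MHC class II genes none reached an unadjusted p under 0.05, by edgeR, and DESeq2 and the fit over 15 tumours also called 0. The summed share of T and NK cell genes was 0.00162% to 0.00277% of scaled counts in untreated tumours, 0.00195% and 0.00177% in chemotherapy tumours 1 and 2, and 0.0102% in tumour 3. The type I interferon list was above the untreated range in tumours 1 and 2 at T cell shares within the untreated range.

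**Figure D3:**
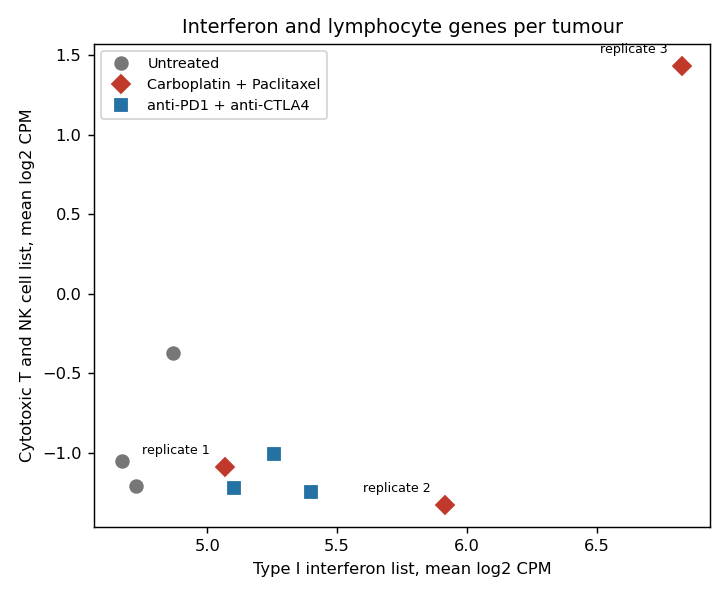
Mean log2 CPM of the type I interferon list (x axis) against that of the cytotoxic T and NK cell list (y axis), 1 point per 2208 tumour, with the chemotherapy tumours named by replicate. Chemotherapy tumour 2 sits at 5.92 for interferon genes and -1.33 for lymphocyte genes, and tumour 3 at 6.83 and 1.43, apart from all others in the plot.

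Genes of the p53 pathway gave a mixed picture. Of 29 tested targets, 19 were above 0 and 10 below, with a median fold of 0.11. In 9 of the 29 all treated tumours lay above all untreated ones and in 1 below, against 9.33% and 8.47% of all genes. At unadjusted p 5 were higher and 0 lower (Cdkn1a, Btg2, Fas, Ei24 and Sesn2), DESeq2 called 4 higher and the fit over 15 tumours 2. Without chemotherapy tumour 1, 13 of the targets were higher at unadjusted p. In that setting 3716 of all genes differed at unadjusted p, against 1966 with no tumour left out. Cdkn1a (chr17:29090976-29100727), the cyclin-dependent kinase inhibitor p21, stood at 22.1, 23.1 and 24.1 CPM untreated and at 25.3, 54.8 and 108 CPM treated. The groups did not overlap, although tumour 1 lay barely above the untreated tumours. Its fold was 1.43 ± 0.451 (adjusted p = 0.334 by edgeR, 0.029 to 0.795 over the alternatives).

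Btg2, a growth-restraining early p53 target, was more even, at 32.2, 32.4 and 32.1 CPM untreated and 46.2, 40.6 and 55.2 CPM treated, with a fold of 0.55 ± 0.131 (adjusted p = 0.292 by edgeR, 0.0147 to 0.767 over the alternatives). The death receptor Fas stood at 4.74, 5.6 and 5.2 CPM untreated and 6.65, 8.97 and 12.6 CPM treated. Ei24 stood at 78.5, 81.7 and 79.2 CPM untreated and 97.8, 94.5 and 95.5 CPM treated, a small difference with little spread. Mdm2, the ubiquitin ligase that degrades p53 and is itself a p53 target, stood at 70.2, 71.8 and 68.3 CPM untreated and 72.7, 79.9 and 84.0 CPM treated, a fold of 0.16 ± 0.0989 that did not reach an unadjusted p of 0.05. Trp53 itself overlapped between groups, at 83.8 to 86.9 CPM untreated and 65.9 to 106 CPM treated. Its RNA level does not show whether p53 is functional in these tumour cells, and the labels give no genotype. In the antibody tumours Cdkn1a stood at 20.3, 17.3 and 20.0 CPM, below the untreated tumours. The direct difference between chemotherapy and antibody tumours for Cdkn1a was 1.71 ± 0.459 log2 units (unadjusted p = 0.00683 by edgeR).

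DNA replication genes stood lower. By their fitted fold 28 of 31 were below 0 (49.9% of all genes), the median was -0.29, 14 were lower at unadjusted p and 0 higher, and 17 had treated tumours all below the untreated ones. DESeq2 called 3 of them lower and the fit over 15 tumours 1. The number lower at unadjusted p ran from 4 to 16 when single tumours were left out. It was 4 without untreated tumour 1 and 4 without chemotherapy tumour 3, where the median was -0.19. The 16 were reached without chemotherapy tumour 1, where 3716 of all genes differed at unadjusted p, against 1966 with no tumour left out. Pold1, the catalytic subunit of DNA polymerase delta, stood at 42.6, 48.1 and 47.0 CPM untreated and 34.5, 30.9 and 28.4 CPM treated, with a fold of -0.56 ± 0.118 (adjusted p = 0.292 by edgeR, 0.00503 to 0.75 over the alternatives). Rrm2, which makes deoxynucleotides, stood at 146, 126 and 139 CPM untreated and 100, 103 and 81.4 CPM treated. Both groups were tight and did not overlap. Mcm2 of the replicative helicase had a fold of -0.40 ± 0.118. E2f1, the factor that drives these genes, stood at 43.2, 42.7 and 41.0 CPM untreated and 35.8, 30.3 and 29.1 CPM treated. In the antibody tumours 20 of the 31 genes were called lower against the same controls (edgeR, adjusted p under 0.05), as were 9.12% of all genes. Chemotherapy tumours were not lower than antibody tumours for any of the 31 at unadjusted p (5 were higher).

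Mitotic genes, the stage at which paclitaxel acts, showed less. Of 34, 25 were below 0, 5 were lower at unadjusted p and 0 higher, with a median of -0.10. The direction rested on chemotherapy tumour 1, without which the median was 0.03, with 18 members above 0 and 16 below. Plk1, a kinase of spindle assembly, stood at 61.3, 72.0 and 63.8 CPM untreated and 50.7, 48.9 and 51.8 CPM treated. Mki67, the usual proliferation marker, stood at 442, 457 and 381 CPM untreated and at 245, 446 and 296 CPM treated, so tumours 1 and 3 lay below the untreated tumours and tumour 2 among them. Top2a, the topoisomerase that untangles chromosomes, also overlapped, at 315, 307 and 263 CPM untreated and 197, 335 and 270 CPM treated.

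Genes for repair of the lesions that platinum makes had few members past an unadjusted p of 0.05. Among 31 genes for crosslink and homologous repair, 2 were lower and 0 higher at unadjusted p and the median fold was -0.12, or -0.05 without chemotherapy tumour 1 and -0.23 without tumour 2. Among 27 for excision, mismatch and translesion repair 1 was lower, the ligase Lig1, which also joins Okazaki fragments and stood at 89.8, 88.7 and 80.1 CPM untreated and 65.3, 63.7 and 58.2 CPM treated. Ercc1, a nuclease partner in excision of platinum adducts, stood at 36.0 to 39.5 CPM untreated and 28.8 to 41.6 CPM treated, and Brca1 at 40.8 to 47.9 and 30.5 to 55.3 CPM. Both overlapped between groups. Slc31a1, the copper transporter that also takes up platinum drugs, stood at 67.7 to 72.1 CPM untreated and 63.3 to 73.7 CPM treated. Abcb1a and Abcb1b, the P-glycoprotein pumps that export paclitaxel, also overlapped (1.61 to 2.3 against 0.965 to 2.38 CPM and 3.1 to 3.26 against 1.82 to 4.6 CPM). Of 24 tubulin and microtubule genes 1 was higher and 3 lower at unadjusted p. Tubb3, the tubulin isotype often studied in taxane resistance, stood at 0.817, 0.663 and 0.823 CPM untreated and at 0.271, 0.614 and 0.401 CPM treated, a fold of -0.86 ± 0.34 at a low level.

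Cholesterol synthesis genes stood lower in all 22 tested members by their fitted fold, with a median of -0.45. Unadjusted, 11 were lower and 0 higher, 10 had groups that did not overlap, DESeq2 called 6 lower and the fit over 15 tumours 2. The number at unadjusted p ran from 7 to 19 over the settings that leave out 1 tumour, with 19 reached without chemotherapy tumour 1. There 3716 of all genes differed at unadjusted p, against 1966 with no tumour left out. Idi1, which isomerises the building block of all sterols, stood at 116, 101 and 111 CPM untreated and 78.6, 72.8 and 59.5 CPM treated, with a fold of -0.65 ± 0.132 (adjusted p = 0.292 by edgeR, 0.0045 to 0.75 over the alternatives). Hmgcs1, the enzyme before the rate-limiting step, stood at 111, 91.3 and 90.3 CPM untreated and 73.2, 72.8 and 65.8 CPM treated. Srebf2, the factor that drives the whole pathway, stood at 263, 270 and 258 CPM untreated and 212, 171 and 168 CPM treated. These groups did not overlap for any of the 3 genes. In the antibody tumours 8 of the 22 genes were called lower against the same controls (edgeR, adjusted p under 0.05), as were 9.12% of all genes. Idi1 fell there by 0.79 log2 units.

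Fibroblast and matrix genes also stood lower, 25 of 30 by their fitted fold with a median of -0.40. At unadjusted p 11 were lower and 1 higher, 9 had treated tumours all below the untreated ones, DESeq2 called 5 lower and the fit over 15 tumours 3. Without untreated tumour 3 the median was -0.18 and 6 were lower at unadjusted p, and without chemotherapy tumour 1 the median was -0.24. Col5a1 (chr2:27886425-28039514), a chain of fibril-forming type V collagen, stood at 459, 403 and 638 CPM untreated and 191, 222 and 280 CPM treated, a fold of -1.12 ± 0.21 (adjusted p = 0.292 by edgeR, 0.000641 to 0.654 over the alternatives). Col6a3 of type VI collagen stood at 757 ± 147 CPM untreated (SD, n = 3) and at 348, 435 and 364 CPM treated, a fold of -1.0 ± 0.168. Acta2, the smooth muscle actin of myofibroblasts, stood at 190, 163 and 253 CPM untreated and 128, 101 and 113 CPM treated. The 3 genes did not overlap between groups. Not all matrix genes took part: Postn overlapped, at 608, 612 and 785 CPM untreated and 492, 737 and 784 CPM treated, and so did fibronectin, Fn1, at 3090, 2730 and 2680 CPM untreated and 2230, 3140 and 2350 CPM treated.

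The mesenchymal transition list was mixed, with 8 of 21 tested members above 0 and 13 below, a median fold of -0.14, and 1 higher and 4 lower at unadjusted p. Without untreated tumour 3 its median was -0.05 and without chemotherapy tumour 2 it was -0.03. Of its members, Itga5 is named after its values were seen, and Vim was among the 24 genes set to be named in any case. Itga5, the integrin chain that binds fibronectin, stood at 101, 84.9 and 110 CPM untreated and 63.2, 62.7 and 65.1 CPM treated, with a fold of -0.64 ± 0.118, against 97.5, 86.9 and 88.2 CPM in the antibody tumours. Vim, the mesenchymal filament protein vimentin, stood at 382, 404 and 513 CPM untreated and 305, 271 and 318 CPM treated. Endothelial and perivascular genes had 6 lower and 1 higher of 24 at unadjusted p, and 2 lower without untreated tumour 3.

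**Figure D4:**
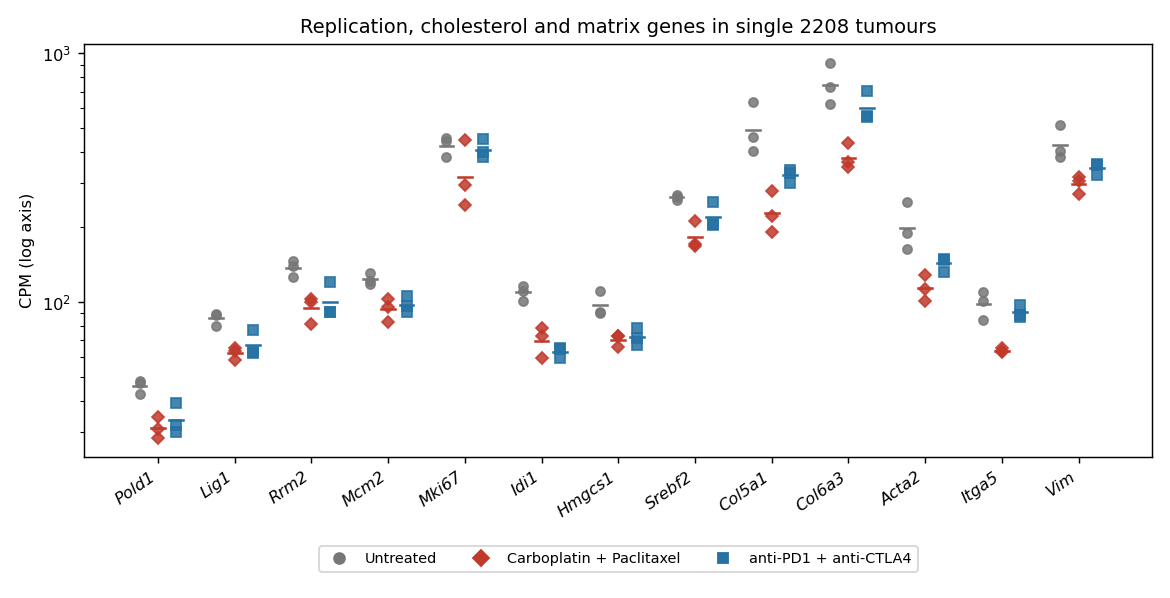
CPM of 13 replication, cholesterol synthesis and matrix genes in single 2208 tumours on a log axis, with symbols and bars as in the plot of interferon genes. Pold1, Lig1, Rrm2, Idi1, Hmgcs1, Col5a1, Col6a3 and Itga5 have chemotherapy groups wholly below the untreated ones, Mki67 does not, and Itga5 and Col6a3 are higher in the antibody than in the chemotherapy tumours.

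Skeletal muscle transcripts had the median fold farthest from 0 of the 42 lists. All 18 members stood lower by their fitted fold, 16 at unadjusted p and 16 without overlap, with a median of -2.63, and DESeq2 called 5. The fit over 15 tumours called 0. The summed share of the 18 genes was 0.23%, 0.591% and 0.166% of scaled counts untreated, 0.0428%, 0.013% and 0.092% with chemotherapy and 0.00622% to 0.0355% with antibodies. Ckm, the muscle creatine kinase, stood at 141, 560 and 127 CPM untreated and 32.3, 6.19 and 57.6 CPM treated. Acta1 and Mylpf, actin and a myosin light chain of fast fibres, were detected in every tumour. Adipocyte genes had 11 of 13 below 0, but their values scattered: the marker Adipoq stood at 1.78, 3.5 and 1.01 CPM untreated and at 0.0992, 0.0361 and 2.62 CPM treated, and Plin1 was at 0 in chemotherapy tumour 1. The untreated samples held more muscle RNA than any treated sample of either group, beside the lower matrix, replication and cholesterol genes, and its part in those results was not tested.

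Macrophage genes leaned upwards, with 19 of 25 above 0, 5 higher and 0 lower at unadjusted p, a median fold of 0.42 and 3 called by DESeq2. Without chemotherapy tumour 3 the median was 0.07. Spp1 (chr5:104435118-104441050), the secreted protein osteopontin made by tumour cells and macrophages, stood at 5670, 5510 and 6120 CPM untreated and at 11500, 10200 and 13200 CPM treated. Its fold was 1.0 ± 0.147 (adjusted p = 0.226 by edgeR, 1.77e-09 to 0.666 over the alternatives), and in the antibody tumours it rose by 0.73 log2 units. Mmp12, the macrophage elastase, stood at 7.9, 11.7 and 10.9 CPM untreated and 19.3, 41.3 and 20.2 CPM treated. Cd68, a lysosomal protein of macrophages, stood at 31.9, 35.8 and 35.8 CPM untreated and 40.4, 58.2 and 70.3 CPM treated. For these 3 genes the groups did not overlap. Of 19 neutrophil genes 4 were higher and 2 lower at unadjusted p, S100a8 among the higher ones with 4.52, 4.14 and 7.23 CPM untreated and 9.5, 7.4 and 7.94 CPM treated. Csf3r and Cxcr2, receptors found on neutrophils, overlapped between the groups (13.2 to 17.2 against 15.4 to 26.4 CPM and 3.1 to 3.72 against 2.56 to 5.0 CPM).

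Further genes with small p-values are named here after their values were seen. Mogat1 (chr1:78510991-78538173), an acyltransferase of triglyceride synthesis, stood at 0.392, 0.325 and 0.445 CPM untreated and 2.46, 2.06 and 2.9 CPM treated, a fold of 2.66 ± 0.246 (adjusted p = 0.08 by edgeR, 1.18e-16 to 0.593 over the alternatives). Galnt18 (chr7:111471661-111779977), a member of the family that starts O-linked sugar chains, stood at 20.8, 23.1 and 23.3 CPM untreated and 9.93, 10.4 and 9.62 CPM treated, a fold of -1.17 ± 0.115 (adjusted p = 0.08, and 6.1e-18 to 0.6 over the alternatives). Both had treated tumours within a narrow range, which a choice by small p favours. Muc1, the cell surface mucin of luminal epithelium, stood at 167, 178 and 160 CPM untreated and 277, 269 and 315 CPM treated. Serpine2, a secreted protease inhibitor, stood at 559, 550 and 523 CPM untreated and 829, 857 and 924 CPM treated. Igfbp5, which binds insulin-like growth factors and is known for its rise in the involuting mammary gland, stood at 3110, 2920 and 2640 CPM untreated and 4680, 5630 and 4660 CPM treated. Krt15, a basal keratin, stood at 11.4, 16.2 and 11.9 CPM untreated and 3.69, 6.22 and 5.34 CPM treated, and Cthrc1, a secreted protein of activated fibroblasts, at 25.2, 24.1 and 33.4 CPM untreated and 10.9, 15.3 and 14.0 CPM treated. The groups did not overlap in any of these genes, but non-overlap was a condition in part of the choice, so it is not a result. The basal keratin Krt14, set to be named in any case, overlapped (4.32, 11.2 and 6.54 CPM untreated against 5.06, 8.4 and 13.1 CPM treated).

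**Figure D5:**
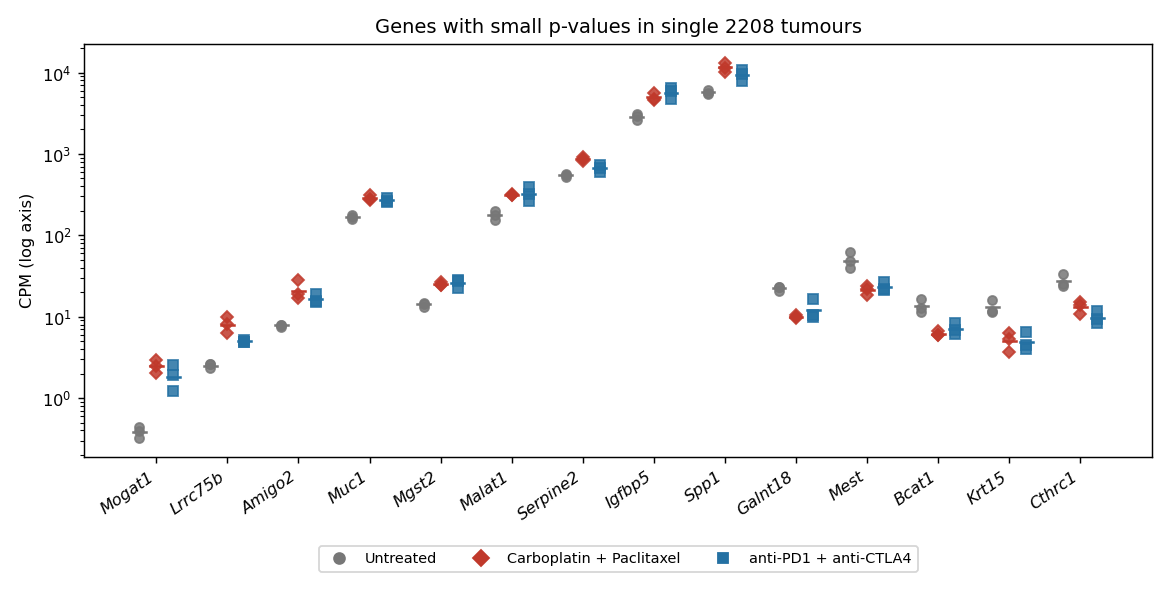
CPM of 14 genes with small p-values in chemotherapy against untreated 2208 tumours, on a log axis with symbols and bars as in the plot of interferon genes. The antibody tumours (blue squares) lie near the chemotherapy tumours for Mogat1, Muc1, Mgst2, Malat1, Igfbp5 and Krt15, and between the groups for Lrrc75b and Serpine2.

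The antibody tumours give a second comparison across the same gap in library numbers. Against the same untreated tumours 3293 of 18254 genes were called (18.0%), 1628 higher (8.92%) and 1665 lower (9.12%). Leaving out antibody tumour 1 left 1042 calls, and leaving out antibody tumour 3 left 1781. Mogat1 rose by 2.28, Muc1 by 0.69, Igfbp5 by 0.99 and Malat1 by 0.88 log2 units with antibodies, and Galnt18 fell by 0.85, while their folds with chemotherapy were 2.66, 0.76, 0.78, 0.83 and -1.17. Of the type I interferon genes 21 rose and 1 fell with antibodies, with a median of 0.56 beside 1.43 with chemotherapy. All 18 muscle genes and 9 of the 12 adipocyte genes tested there fell with antibodies. Of 30 fibroblast and matrix genes 12 were called lower and 2 higher with antibodies, with a median of -0.51 beside -0.40 with chemotherapy. These comparisons share their controls.

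The direct comparison of chemotherapy with antibody tumours, which uses no untreated tumour, called 0 of 18013 genes (0%) by edgeR. At unadjusted p 1942 differed (10.8%), 1026 higher (5.70%) and 916 lower (5.09%) with chemotherapy, and DESeq2 called 214. For the type I interferon list the median difference was 0.90 and 12 of 28 were higher at unadjusted p. Isg15 stood at 38.4, 33.6 and 36.9 CPM with antibodies, below all 3 chemotherapy tumours, a difference of 0.92 ± 0.31. Across the whole list the groups overlapped, with a mean log2 CPM of 5.40, 5.10 and 5.26 with antibodies. Chemotherapy tumour 1 (5.07) lay below all antibody tumours, and tumours 2 and 3 (5.92 and 6.83) lay above them. For p53 targets 11 of 29 were higher and 0 lower at unadjusted p. Against untreated tumours 6 of the 29 were called lower and 5 higher with antibodies, with a median fold of -0.10. The difference was -0.51 ± 0.0904 for Itga5 and -0.66 ± 0.141 for Col6a3, in both with chemotherapy lower. Of the 30 fibroblast and matrix genes 5 were higher and 6 lower at unadjusted p, with a median difference of -0.11. For Cd274 the difference was 0.57 ± 0.493 and the groups overlapped. For muscle genes 0 of 18 differed at unadjusted p.

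The model 2153 received the same treatments, with a median survival of 12 days with chemotherapy and 10 days without. A test of the difference between the responses of 2208 and 2153 called 3 of 18981 genes (0.0158%), Gm14440, Mid1 and Mogat1, all with a higher response in 2208, and 2978 differed at unadjusted p (15.7%). DESeq2 called 280. Mogat1 stood on the scale of this fit at 15.9, 16.5 and 15.2 CPM in untreated and 21.8, 16.3 and 16.9 CPM in treated 2153 tumours, against 0.406, 0.338 and 0.458 CPM and 2.55, 2.11 and 2.96 CPM in 2208. The difference of the folds was 2.44 ± 0.287 (adjusted p = 0.0297 by edgeR's quasi-likelihood test, and 0.0226 to 0.213 when single 2208 tumours were left out). Isg15 and Cdkn1a, with higher treated than untreated means in both models, differed by -0.56 ± 0.755 and -0.23 ± 0.611. Col5a1 had a lower response in 2208 by -1.37 log2 units (unadjusted p = 0.00213), and Spp1 a higher one by 1.17 (unadjusted p = 0.00254).

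Against the mean response of the other 14 models with at least 3 tumours in both groups, 0 of 24010 genes were called (0%) by edgeR, 857 differed at unadjusted p (3.57%) and DESeq2 called 56. The median log2 change over the members of the type I interferon list was 1.20 in 2208, rank 4 of 15 models from the highest. The other models ran from -0.42 to 1.71, the latter in KPB25L. The fibroblast list changed by a median of -0.40, rank 13 of 15. Of its 30 members 12 had a lower response in 2208 at unadjusted p, as did 2.38% of all genes. Itga5 differed from the other models by -0.96 ± 0.227 and Col5a1 by -1.48 ± 0.418 log2 units. The endothelial list had the lowest median change of the 15 models, -0.26, close to -0.23 in KPB25L. In 2208 its median fold against untreated tumours was -0.24 with antibodies, beside -0.26 with chemotherapy. For Cd274 2208 had the highest change of the 15 models, 1.72, with a difference from their mean of 1.03 ± 0.558 (unadjusted p = 0.0688, adjusted p = 1.0 by edgeR). Cdkn1a ranked 9 of 15 and its difference was -0.11 ± 0.465.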

How the data were processed

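Libraries were made from RNA of cryopreserved tumours with an mRNA kit, per the labels' protocols. Per the submitters' processing notes the tools were STAR, SAMtools, Picard and Salmon with the build mm10, with no versions given in the labels. A deposited table holds Salmon's estimated counts per gene symbol (55291 genes), which were rounded to whole numbers. A second deposited table, of unit signal, holds the same counts divided by each library's 75th percentile of values above 0 and multiplied by 1000, as checked on the values, and served in alternatives with limma 3.58.1.

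Comparisons used edgeR 4.0.16 in R 4.3.3 (filterByExpr, TMM scaling, quasi-likelihood test, Benjamini-Hochberg adjustment over all tested genes, threshold 0.05), tested on simulated data first. DESeq2 1.42.0, voom, other filters and scalings, 1 fit over 15 tumours and leaving out each tumour were alternatives. Legacy-off and robust fits were added after 0 genes had been called. The SE is the log2 fold divided by the square root of the F statistic.

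The tumours, gene lists and 24 of the named genes were chosen with earlier results of these data known. The other named genes were chosen after their values were seen, by smallest p, largest fold or role in a list, since the rule for called genes named none. The choices by largest fold, and by smallest p outside the lists, took only genes whose groups did not overlap. Gene positions are from GENCODE M21 (GRCm38, which is mm10).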

Additional observations from a re-analysis of the deposited data

Results flagged for a closer look

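The difference between the chemotherapy responses of 2208 and 2153 passed the test for 3 genes. For Gm14440, a predicted gene on chromosome 2 whose near-identical neighbours can share its reads, the adjusted p was 0.00329 by edgeR's quasi-likelihood test. It stood at 9.48, 9.58 and 8.9 CPM in untreated 2153 tumours (643 to 790 counts) and at 0 in all 3 treated ones, at least 164-fold lower with a floor of 3 counts per library, while 2208 had 3.87, 3.58 and 2.61 CPM untreated and 2.12, 6.74 and 3.44 CPM treated. For Mid1, a ubiquitin ligase that binds microtubules and lies on chromosome X, the adjusted p was 0.0364, and 0.0592 to 0.253 when single 2208 tumours were left out, so that the call was lost in each case. Mid1 stood at 116, 120 and 92.5 CPM in untreated and 20.5, 12.4 and 9.5 CPM in treated 2153 tumours, against 71.2, 85.8 and 70.2 CPM and 63.9, 74.4 and 65.7 CPM in 2208, a difference of 2.80 ± 0.35 log2 units. For Mogat1 the adjusted p was 0.0297. In Gm14440 and Mid1 the values that moved were those of 2153, and in Mogat1 those of 2208.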

How the results depend on the processing

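For chemotherapy against untreated tumours, where 0 genes were called, the alternatives called 8 (no filter on low counts), 554 (DESeq2), 179 (all 15 tumours), 4 (voom) and 4 each with the authors' normalised table at pseudocounts of 1 and 10. DESeq2 size factors in edgeR, a stricter filter, the legacy-off fit and the robust fit called 0. Calls ran from 0 to 0 when single tumours were left out, with 1129 to 3716 genes at unadjusted p. For chemotherapy against antibodies, no filter gave 1 and DESeq2 214, and leaving out single tumours gave 0 to 4, the 4 without chemotherapy tumour 1. For antibodies against untreated, the range was 1042 to 2709, and no filter gave 1410 higher and 2189 lower. Against 2153, no filter gave 5, DESeq2 280, and single tumours left out 1 to 3. Against the other models, DESeq2 gave 56 and models with close library numbers 2, and single tumours left out 0 to 0. The cause of these differences was not tested.

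Without chemotherapy tumour 3 the folds of 4 named genes changed sign, H2-K1 to -0.006, Cd8a to -0.009, Pdcd1 to -0.493 and H2-Ab1 to -0.227 (ranges over single tumours left out -0.006 to 1.282, -0.009 to 3.506, -0.493 to 1.599 and -0.227 to 1.056). The folds of the other genes named with a fold in the report kept their direction under every alternative run. With the authors' table the median of the tubulin list was 0.026 against -0.039. No scaling moved the median of all genes by more than 0.0504 log2 units. No paired analysis was possible because the labels give no replicate numbers.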

Other observations

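Other gene groups differed among the 3 chemotherapy tumours more than from the untreated ones. The hypoxia and glycolysis list had a mean log2 CPM of 7.08, 7.0 and 6.96 untreated and of 7.58, 7.02 and 6.39 with chemotherapy, so that tumour 1 lay above and tumour 3 below the untreated range. Egln3, the oxygen-sensing hydroxylase induced by low oxygen, stood at 111, 96.3 and 100 CPM untreated and 185, 110 and 43.4 CPM treated. Car9, a carbonic anhydrase used as a hypoxia marker, stood at 3.42, 3.65 and 3.79 CPM untreated and 8.67, 4.53 and 2.24 CPM treated. The order of the tumours was the reverse of that in the interferon list. Tumour 3 was the highest treated tumour for 525 of the 893 genes higher at unadjusted p. It had 434 genes at least 2-fold above the highest untreated tumour, of 14001 with a mean of at least 1 CPM (0.1 CPM added), against 30 in tumour 1 and 76 in tumour 2. In the other direction tumours 1, 2 and 3 had 329, 238 and 93 genes at least 2-fold below the lowest untreated tumour. By the same measures the antibody tumours had 62, 21 and 46 genes above and 291, 302 and 250 below.

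Several transcripts with the smallest p-values belong to families of near-identical copies, so reads may be split between the copies and the values are uncertain. Gm14288 stood at 1.66, 1.95 and 2.19 CPM untreated and at 0 in all 3 chemotherapy tumours, with 0.828, 1.01 and 5.24 CPM in the antibody tumours. Rps19-ps1 stood at 1.16, 0.725 and 0.929 CPM untreated and at 0 in all 3 chemotherapy tumours, and Rps19-ps2 at 0 untreated and at 1.06, 0.65 and 0.489 CPM treated. Flnc, an actin crosslinker of muscle and other contractile cells, stood at 63.1, 63.3 and 60.4 CPM untreated and at 14.1, 9.84 and 27.4 CPM treated, with 12.7, 11 and 21.3 CPM in the antibody tumours.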
